A study of Mus musculus with 2 samples.

Results

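The miR-181 family of the mouse is made from 6 microRNA (miRNA) genes, Mir181a-1, Mir181b-1, Mir181a-2, Mir181b-2, Mir181c and Mir181d. They were taken by name from a table of 1973 miRNA loci, and all 6 have a count in it. The table came from small RNA sequencing (stated size range under 30 nt) of embryonic midbrain at day 14.5 from mice of strain B6NCrl. There was 1 group with 2 replicates and no treatment, so no conditions could be compared, and the questions were how much each member gave and how closely the replicates repeated it. Per the labels each replicate was the midbrain of 1 pup, collected on a different day, with sex given as mixed. Both carry the same donor identifier and the same pup and pregnancy numbers. SDs here therefore measure only the spread between these 2 libraries, which may be technical. The p-values set the difference of these 2 libraries against counting error, or against a spread named with the test.

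A miRNA gene is transcribed into a long primary RNA, from which a hairpin is cut and then trimmed to short mature RNAs, one from each arm (5p and 3p). The mature RNA guides Argonaute proteins to messenger RNAs that pair with its seed, bases 2 to 8, and lowers their output. The miR-181 family is known from lymphoid cells, where miR-181a sets how sensitive developing T cells are to antigen, and from brain and retina, where family members act on mitochondrial genes. Its genes lie in pairs, one a or c gene beside one b or d gene, and each pair is thought to come from one primary transcript.

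The mature sequences decide which member a read can be given to, so they are shown first, 5′ to 3′, with the seed in capitals (RefSeq, build GRCm38.p6). All 12 arms of the 6 loci were in that table.

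miR-181a-5p (Mir181a-1 and Mir181a-2): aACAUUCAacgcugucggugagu

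miR-181b-5p (Mir181b-1 and Mir181b-2): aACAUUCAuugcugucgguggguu

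miR-181c-5p (Mir181c): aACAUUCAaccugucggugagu

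miR-181d-5p (Mir181d): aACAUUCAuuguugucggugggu

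All 4 sequences of the 5p arm had the seed ACAUUCA, and no mature miRNA outside the 6 loci carried it in the table. Their first 8 bases were identical. Positions below are counted from base 1 at the 5′ end. miR-181b-5p differed from miR-181a-5p by A9U, C10U and A21G over the first 23 bases, and miR-181d-5p differed from miR-181b-5p by C12U alone. miR-181c-5p equalled miR-181a-5p without the G at position 11. The family therefore held 2 kinds of 5p arm, a with c and b with d, and each gene pair had 1 of each kind. One a gene and one b gene could not be told from their copies on another chromosome by the 5p arm, whereas Mir181c and Mir181d each had a 5p arm of their own.

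The 3p arms were different at every locus and showed where the copies part.

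miR-181a-1-3p (Mir181a-1): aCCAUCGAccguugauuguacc

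miR-181a-2-3p (Mir181a-2): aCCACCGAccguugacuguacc

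miR-181c-3p (Mir181c): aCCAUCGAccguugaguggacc

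miR-181b-1-3p (Mir181b-1): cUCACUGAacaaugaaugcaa

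miR-181b-2-3p (Mir181b-2): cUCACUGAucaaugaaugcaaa

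miR-181d-3p (Mir181d): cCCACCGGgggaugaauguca

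miR-181a-2-3p differed from miR-181a-1-3p by U5C and U16C, the first of which lies in the seed. miR-181c-3p differed from miR-181a-1-3p by U16G and U19G, and these 2 arms had the same seed, as did both miR-181b 3p arms, which differed by A9U. Each 3p arm occurred in 1 annotated hairpin only, and each of the 5p arms of miR-181a and miR-181b in 2. The counts do not tell the arms of a hairpin apart, so how many reads at a locus were 5p and how many 3p is not known from these files.

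A read of the shared 5p arms could still be placed if it ran past the mature end. The stretches below give the part of the hairpin that both copies share in lower case, with the first base on each side that differs between them in capitals.

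Mir181a-1: UgaacauucaacgcugucggugaguuuggA

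Mir181a-2: GgaacauucaacgcugucggugaguuuggG

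Mir181b-1: AucaacauucauugcugucgguggguuG

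Mir181b-2: CucaacauucauugcugucgguggguuU

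The copies of miR-181a shared 28 nt, and reads became distinct only at the fifth base past the 3′ end of the mature form or at the second base before its 5′ end. The copies of miR-181b shared 26 nt and parted at the first base past the 3′ end, which is G in Mir181b-1 and U in Mir181b-2. Of all windows of 20 nt in the hairpins, 9 of 68 in Mir181a-1, 9 of 57 in Mir181a-2, 7 of 61 in Mir181b-1 and 7 of 70 in Mir181b-2 recurred in another annotated miRNA hairpin, in each case the copy. In Mir181c 0 of 70 windows and in Mir181d 0 of 53 recurred. No genome sequence was searched. The tables keep reads that map to several places out of the gene counts, and these made up 36.2% of all reads in replicate 1 and 36.9% in replicate 2. A count at the 4 a and b loci can therefore be lower than what those genes gave, by an amount that was not measured. Whether any read was given to the wrong copy was not tested either.

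**Figure D1:**
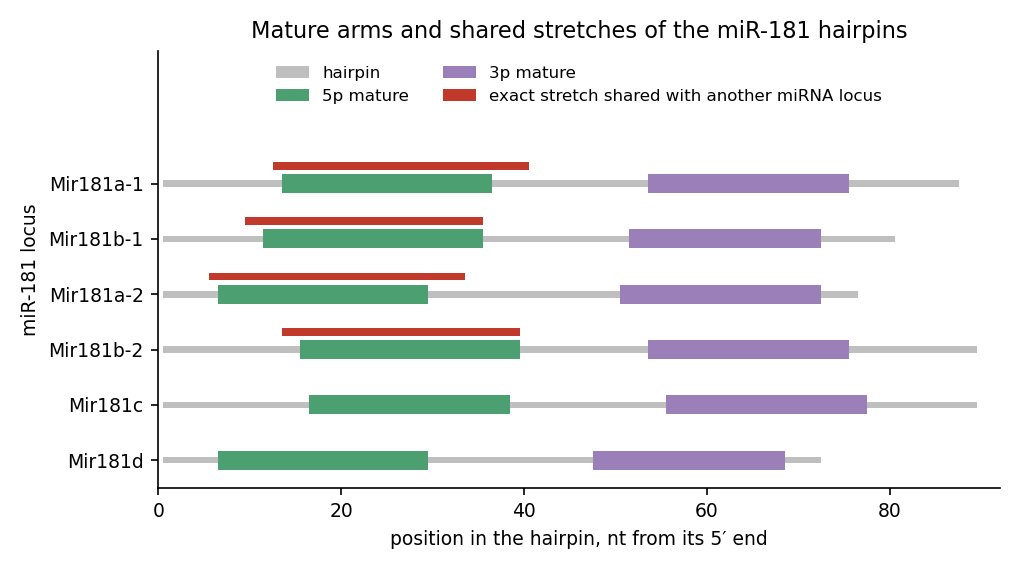
Map of the 6 miR-181 hairpins, with the position in nt from the hairpin's 5′ end on the x axis and 1 row per locus. Grey bars are hairpins, green bars 5p arms, purple bars 3p arms, and red bars mark the stretch covered by 20-nt windows that recur in another annotated miRNA hairpin. The red stretch covers the whole 5p arm in the 4 a and b loci and is missing from Mir181c and Mir181d.

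The genes lie in 3 clusters (coordinates of mm10). Mir181a-1 (ENSMUSG00000065565.1) at chr1:137966455-137966541 and Mir181b-1 (ENSMUSG00000065458.1) at chr1:137966639-137966718 are on the plus strand, 97 bases apart, in an intron of the noncoding gene Gm4258. Mir181b-1 also lies within an exon of the noncoding gene A430106G13Rik, which overlaps the last 11 bases of the Mir181a-1 hairpin. Mir181a-2 (ENSMUSG00000065423.1) at chr2:38852735-38852810 and Mir181b-2 (ENSMUSG00000065578.1) at chr2:38853830-38853918 are on the plus strand, 1019 bases apart, opposite to an intron of Nr6a1, which encodes an orphan nuclear receptor. Mir181c (ENSMUSG00000065483.1) at chr8:84178873-84178961 and Mir181d (ENSMUSG00000076338.1) at chr8:84178716-84178787 are on the minus strand, 85 bases apart, in an intron of the germ cell gene Nanos3. For Mir181c the coordinates belong to a later version of the same gene identifier than the one in the count tables.

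The libraries held 7302633 and 3966727 sense reads at miRNA loci, and levels are given as CPM, a locus's reads scaled to a common library size, in which 1 read equalled 0.137 in replicate 1 and 0.252 in replicate 2. Of the 9 counted neural marker loci 7 had 10 or more reads in each library, and Mir9-2 and Mir124a-3 did not. The summed level of the 9 was 19053 and 23072 CPM in the 2 replicates. Most of it came from Mir137 (11495 and 13936 CPM) and Mir153 (5280 and 6472 CPM). The neuronal Mir124a loci, which also have near-identical copies, were at most 11.6 CPM.

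The family was led by the chromosome 8 pair. Mir181c had 16614 and 17682 CPM in replicates 1 and 2 (17148 ± 755, SD, n = 2), in place 13 of all loci in both libraries. Mir181d stood at 9944 and 11014 CPM (10479 ± 757), and Mir181a-1 at 6089 and 6272 CPM (6180.3 ± 130). These 3 loci were high in both libraries, and the replicates differed by less than the gap from one locus to the next. In a bulk tissue, fewer cells of a type cannot be told apart from less RNA per cell, and CPM is not scaled by length, although the hairpins are all between 72 and 89 nt.

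The other 3 members were lower and spread over more than 2 orders of magnitude. Mir181b-2 had 3758 CPM in the first and 1940.4 CPM in the other (2849 ± 1285). Mir181a-2 had 356 and 324 CPM (339.9 ± 23.0). Mir181b-1 was the lowest, with 242 reads in replicate 1 and 55 in replicate 2, or 33.1 CPM (exact Clopper-Pearson 95% interval 29.1 to 37.6) and 13.9 CPM (10.4 to 18.05). Such intervals cover counting error only. The order from Mir181c to Mir181b-1 was the same in both libraries, and each of the 5 steps exceeded the larger SD of the 2 loci it separates. The step from Mir181a-1 to Mir181b-2 was the most variable of the upper ones, 1.62-fold in replicate 1 and 3.23-fold in replicate 2.

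**Figure D2:**
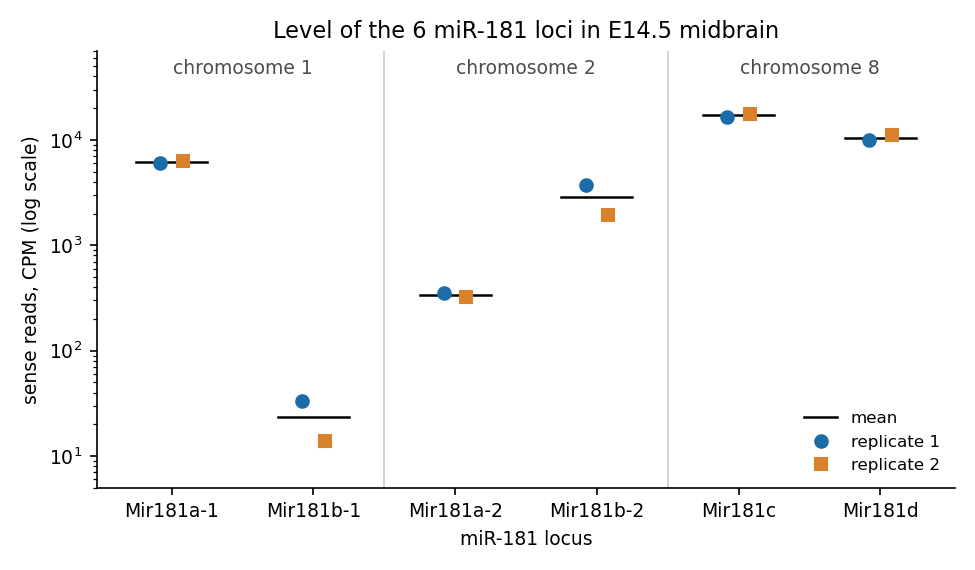
Sense reads of each miR-181 locus in CPM on a log scale, grouped by chromosome. Circles are replicate 1, squares replicate 2 and lines the mean of both. Mir181c is highest at 17148 CPM and Mir181b-1 lowest at 23.5 CPM, and only the Mir181b loci show replicates that stand clearly apart.

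All 6 members had at least 10 sense reads in each replicate, against 397 of the 1973 loci (20.1%). Together they took 268686 sense reads in replicate 1 and 147743 in replicate 2. These were 3.68% (95% limits 3.67 to 3.69) and 3.72% (3.71 to 3.74) of the sense reads, or 3.70% ± 0.0320. The family total thus varied far less between the libraries than its b members did. No read fell on the opposite strand at any of the 6 loci.

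The Mir181c/d cluster supplied most of what was counted. Its summed level was 26557 and 28696 CPM (27627 ± 1512), against 6122 and 6286 CPM (6204 ± 116) for Mir181a-1/b-1 and 4114 and 2264 CPM (3189 ± 1308) for Mir181a-2/b-2. Mir181c/d thus held 74.6% ± 3.44 of the family's reads, Mir181a-1/b-1 16.8% ± 0.168 and Mir181a-2/b-2 8.63% ± 3.61. Mir181c/d exceeded Mir181a-1/b-1 by 4.34-fold in replicate 1 and 4.57-fold in replicate 2. It exceeded Mir181a-2/b-2 by 6.46-fold and 12.7-fold, so the size of that gap was not settled by these libraries. The cluster with no 20-nt window shared with another annotated miRNA hairpin was the highest. Whether reads lost at the shared arms set this order was not tested. Grouped by kind of 5p arm, the a and c loci summed to 23668 ± 862 CPM. The b and d loci summed to 13351 ± 542 CPM, a ratio of 1.68 in replicate 1 and 1.87 in replicate 2. Reads that fit both copies of a shared 5p arm are left out of these sums. The sums can also hold 3p reads, so they do not give the amounts of the 5p arms.

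Within the clusters the balance of the neighbours went in different directions. Mir181c exceeded Mir181d 1.67-fold in replicate 1 and 1.61-fold in replicate 2 (1.64 ± 0.0462). Mir181a-1 exceeded Mir181b-1 184-fold and 452-fold (318 ± 190). On chromosome 2 the b gene was the higher one, and Mir181b-2 exceeded Mir181a-2 10.5-fold and 5.99-fold (8.27 ± 3.22). On chromosome 1 the a locus held 99.46% of the pair's reads in replicate 1, with a Clopper-Pearson range of 99.39 to 99.53, and 99.78% (99.71 to 99.83) in the other. On chromosome 2 it held 8.66% (8.34 to 8.98) and 14.3% (13.6 to 15.0). Mir181c held 62.6% (62.3 to 62.8) and 61.6% (61.3 to 61.9) of its pair. Library size cancels in these ratios. Loss of reads at the shared 5p arms need not cancel. Past the 3′ end the miR-181a copies part at base 5 and the miR-181b copies at base 1. In all 3 clusters the intervals of the replicates do not overlap, but they cover counting error only. At these read numbers they separate shares as close as 62.6% and 61.6% in Mir181c/d. How often other pairs of loci part in this way was not computed. Of the counted reads, the a locus held the larger share on chromosome 1 and the smaller share on chromosome 2 in both libraries. Mir181c and Mir181d were the most evenly split pair, with Mir181c higher in both libraries.

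On chromosomes 1 and 2 the ratio of an a to a b locus moved more between the libraries than the ratio of the copies that share a 5p arm, while the Mir181c/d ratio moved least. Mir181a-1 exceeded its copy Mir181a-2 17.1-fold and 19.4-fold (18.2 ± 1.61), and Mir181b-2 exceeded its copy Mir181b-1 113-fold and 140-fold (127 ± 18.8). These ratios of copies moved 1.13-fold and 1.23-fold between the replicates. The ratio of Mir181a-1 to Mir181b-1 moved 2.46-fold and that of Mir181a-2 to Mir181b-2 1.76-fold, whereas that of Mir181c to Mir181d moved 1.04-fold. With 2 libraries this is a description, and no test of the difference was made.

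**Figure D3:**
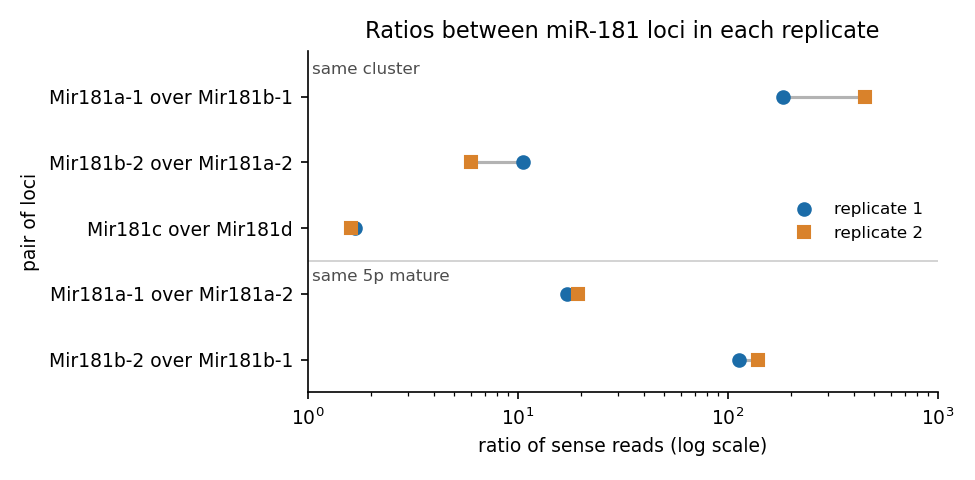
Ratio of sense reads between pairs of miR-181 loci on a log scale, with circles for replicate 1 and squares for replicate 2. The upper 3 rows are neighbours in a cluster and the lower 2 rows are loci with the same 5p mature sequence. The replicates lie far apart at Mir181a-1 over Mir181b-1 (184 and 452) and close together at Mir181a-1 over Mir181a-2 (17.1 and 19.4).

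Between the replicates, both Mir181b loci were lower in replicate 2 and the other 4 members were nearly level. In log2(replicate 2/replicate 1) after scaling library sizes by the trimmed mean of M-values (TMM), Mir181b-1 stood at -1.35 (exact 95% interval -1.80 to -0.92) and Mir181b-2 at -1.05 (-1.09 to -1.01), which is 2.55-fold and 2.07-fold lower in replicate 2. Of the 397 detected loci 15 (3.78%) were at least 2-fold lower in replicate 2, and Mir181b-1 and Mir181b-2 took places 9 and 14 from the lowest ratio. Mir181a-2 stood at -0.23, Mir181a-1 at -0.05, Mir181c at -0.01 and Mir181d at 0.05. Mir181d carries a b-type arm with 1 base changed and did not fall with the Mir181b loci.

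**Figure D4:**
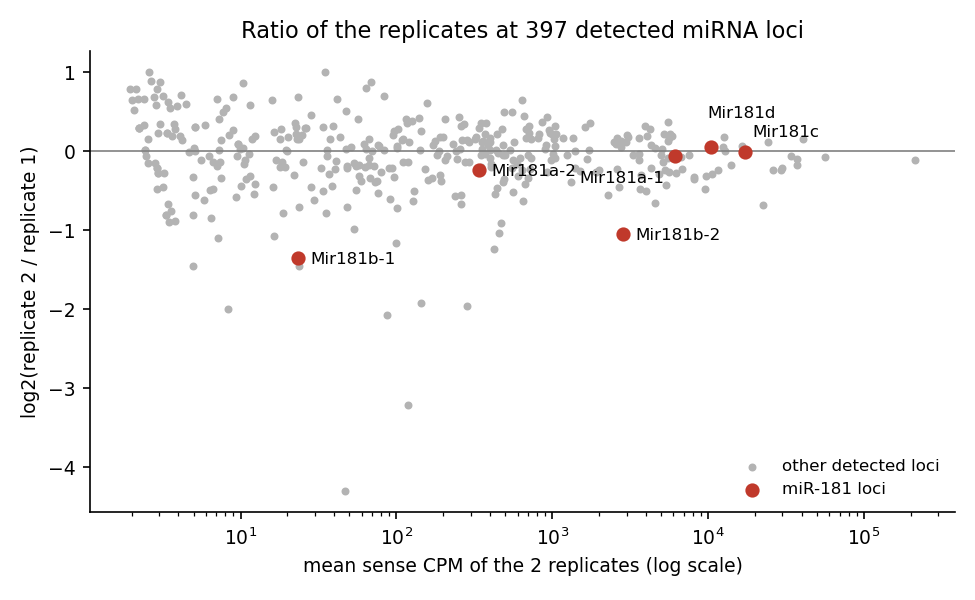
Log2 ratio of replicate 2 to replicate 1 after TMM scaling (y axis) against mean sense CPM (x axis, log scale) for the 397 detected loci. Red points are the miR-181 loci and grey points the others. Mir181b-1 (-1.35) and Mir181b-2 (-1.05) lie below most loci of like level, and the 4 other members lie near 0.

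An exact two-sided binomial test, adjusted by Benjamini-Hochberg over the 397 loci, separated the libraries at 5 of the 6 members, 4 lower and 1 higher in replicate 2. Over all detected loci it called 119 lower (30.0%) and 95 higher (23.9%), a split that became 90 lower and 127 higher with plain library totals. With these all 6 members were called by the exact binomial test, Mir181c as higher (0.09, adjusted p = 2.16e-38), and Mir181a-1 turned to higher (0.04, adjusted p = 0.000415). It allows for counting error only, compares these libraries and not conditions, and at these depths calls differences as small as that of Mir181d, with an adjusted exact binomial p of 6.22e-09. The adjusted exact binomial p was 3.18e-11 for Mir181b-1 and 0.570 for Mir181c. The dispersion, the spread beyond counting error, cannot be measured apart from the difference with 1 library on each side. With edgeR's exactTest and a dispersion set by choice to 0.01, not measured here, Mir181b-1 (adjusted p = 0.000151) and Mir181b-2 (adjusted p = 2.24e-05) passed and no other member did, against 21 of 397 loci (5.29%) called lower. With a dispersion of 0.0481, estimated from the same difference between the libraries that is tested and so absorbing it, edgeR's exactTest called none of the 6 members and 5 of 397 loci (1.26%). Unadjusted p-values were then 0.00755 for Mir181b-1 and 0.0213 for Mir181b-2, with adjusted p of 0.333 and 0.770 in edgeR's exactTest.

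The summed levels of the blood and vessel marker lists were also lower in replicate 2. The 3 red cell markers were all detected and summed to 486 and 153 CPM, of which Mir451a gave 447 and 123 CPM, while Mir486 stood at 9.86 and 10.8 CPM. The white blood cell and microglia list, of interest because miR-181 is known from lymphoid cells, summed to 403 and 178 CPM with 3 of 4 counted loci detected. Mir142b was at 0 on the sense strand, with 2067 and 551 reads opposite to it. Mir142 was on the list but had no count under that name, so the sums leave it out. In that list Mir223, a myeloid miRNA, fell from 212 to 24.5 CPM, while Mir150, a marker of mature lymphocytes, stood at 87.8 and 65.0 CPM. The 3 vessel markers summed to 32566 and 21781 CPM. The part of these cells in the fall of the Mir181b loci was not tested.

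The loci most like each member in level were found by distance in log2(CPM + 1) over the 2 libraries. Mir149 and Mir135b were nearest to Mir181c, at distances of 0.0435 and 0.0840. Mir20a and Mir30a were nearest to Mir181d, at 0.240 and 0.282, and Mir322 and Mir18 to Mir181a-1, at 0.156 and 0.174. Mir669l and Mir219a-1 were nearest to Mir181a-2. The loci nearest to Mir181b-2, Mir16-1 and Mir423, were farther off, at 0.419 and 0.519. For Mir181b-1 they were Gm23935 at 0.0675 and the red cell Mir144 at 0.466. The likeness rests on 2 values per locus.

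The split between loci with an own and with a shared arm was set beside 5 other families that hold both kinds. These are miR-26, miR-29, miR-30, miR-103 and miR-135. In these 5 every locus with a shared mature sequence had a lower mean CPM than every locus without one, as in miR-181. The gap between the highest shared and the lowest unshared locus was 37.1-fold in miR-135, 37.9-fold in miR-103, 69.6-fold in miR-29, 138-fold in miR-30 (2.19-fold if Mir30b, which was not in the sequence table, is taken as unshared) and 426-fold in miR-26. In miR-181 it was 1.70-fold, from Mir181d down to Mir181a-1, with 1.63-fold in replicate 1 and 1.76-fold in replicate 2. Mir26b, for example, had 14076 ± 515 CPM against 33.1 ± 1.84 CPM for Mir26a-2, and Mir135b had 16627 ± 1341 CPM against 448 ± 16.1 CPM for Mir135a-1. The miR-103 family here is Mir103-1, Mir103-2 and Mir107. Of 3 further families, chosen after their values were seen, miR-125 had a gap of 2.88-fold (Mir125a over Mir125b-1) and miR-92 of 2.44-fold (Mir92b over Mir92-1). In the joint miR-15 and miR-16 family the shared Mir16-1, at 2692 CPM, lay above the unshared Mir15b, at 1714 CPM. Besides miR-30 with Mir30b as unshared, gaps near that of miR-181 were seen only in miR-125 and miR-92. The first 5 families were also listed with earlier results of these data known. How common such gaps are was therefore not tested. The order held in the 5 families listed first and in miR-125 and miR-92, but not in miR-15 and miR-16.

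Mir181a-1 was the highest of the loci listed with a shared mature sequence in the RefSeq table. Among 46 such detected loci it took place 1, followed by Mir125b-1 at 3321 ± 72.4 CPM, Mir181b-2 in place 3 and Mir125b-2 at 2759 ± 210 CPM. Mir181a-2 took place 22 and Mir181b-1 place 37. The median of the 46 was 236 CPM, against 128 CPM for the 313 detected loci in the sequence table without a shared mature sequence. These medians leave out loci that were not detected, among them the shared Mir29b-2 and Mir9-2, and they compare different miRNAs. They therefore cannot show whether sharing a mature sequence lowers a count, which was not tested. The gaps above describe the families listed.

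**Figure D5:**
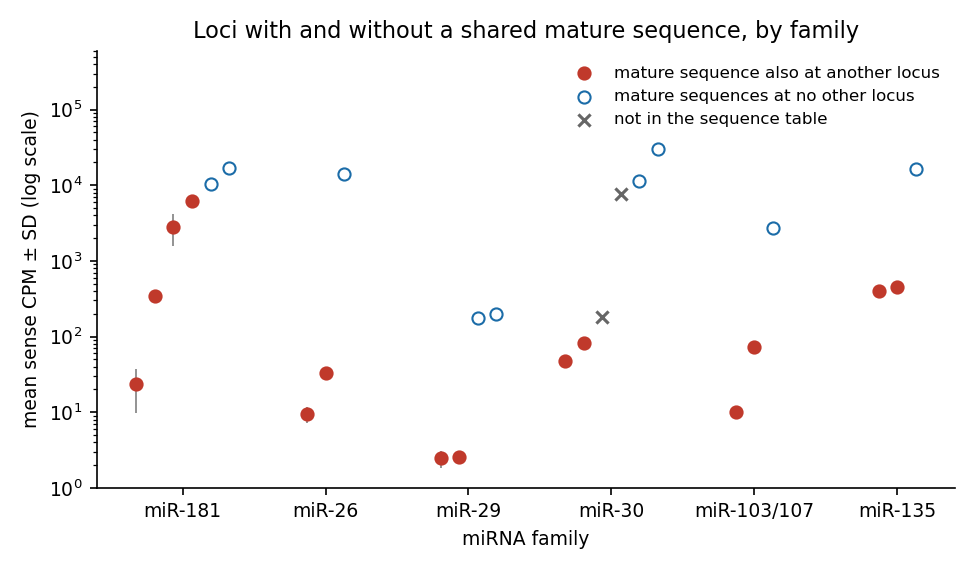
Mean sense CPM with SD (log scale) for the loci of 6 miRNA families. Filled points have a mature sequence that is identical at another locus, open points have none, and crosses are loci outside the sequence table. Filled points lie below open points in the 6 families shown, by 1.70-fold in miR-181, while the cross of Mir30b (183 CPM) lies close above the filled points of miR-30.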

How the data were processed

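Small RNA was sequenced from 2 midbrain libraries. The authors deposited 1 table of raw read counts per library, per miRNA gene and strand. Assembly mm10 and genome annotation M4 are named in the text deposited with each library; no aligner or counter is given in the sources used here. Sense counts were used, and CPM were computed on their sum over genes. The 4 classes of reads outside genes were left out. Of these, unmapped reads were 19.0% and 18.5%, and reads in no gene 3.10% and 2.17%.

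Symbols and positions were taken from GENCODE M21 (mm10). Mature and hairpin sequences printed came from RefSeq (GRCm38.p6), and hairpins for window searches, on both strands, from GENCODE M21 transcripts. TMM factors came from edgeR 4.0.16 (R 4.3.3) on loci with 10 or more reads in both libraries. The exact binomial test across all such loci was run in R. It was tried on simulated counts that held counting error only, which cannot check it against any further spread. Clopper-Pearson intervals of levels and shares came from scipy 1.17.1. Alternatives used DESeq2 1.42.0 size factors, plain totals, other filters, unstranded counts, edgeR's exactTest, other window lengths and each replicate left out. Values are means ± SD, n = 2. Named loci were the members, the 2 loci nearest to each, 5 other families and marker lists; the loci of miR-125, miR-92 and miR-15/16 were chosen after their values were seen. The members and lists were chosen with earlier results of these data known.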

Additional observations from a re-analysis of the deposited data

How the results depend on the processing

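With 1 group and 2 libraries no comparison between conditions was possible, and depth limits mainly Mir181b-1, which had 55 reads in replicate 2. No paired analysis was possible because there was a single group. The exact binomial test allows for counting error only.

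With all reads of the library as the denominator, levels were 7064 CPM for Mir181c, 4317 for Mir181d, 2546 for Mir181a-1, 1171 for Mir181b-2, 139.96 for Mir181a-2 and 9.65 for Mir181b-1. The clusters were then at 11382 CPM for Mir181c/d, 2555 for Mir181a-1/b-1 and 1311 for Mir181a-2/b-2, and the family at 1.52%. With the unstranded count the Mir181a-1/b-1 cluster had 6077 CPM and the family 3.63%. Plain library totals put the median log2 ratio over the detected loci at 0.0947, and the ratio of the replicates turned to 0.0428 at Mir181a-1 and 0.0899 at Mir181c, both then called higher in replicate 2, so that 6 members differed and not 5. With edgeR's exactTest at a dispersion of 0.01, 2 members passed, and Mir181a-1 (-0.0522), Mir181a-2 (-0.233) and Mir181d (0.0525) no longer did. With the dispersion estimated from the tested difference itself 0 of 6 passed, and neither did Mir181b-1 (-1.35) nor Mir181b-2 (-1.05). Under DESeq2 size factors, the unstranded count, no filter and the minimum of 100 reads, which leaves out Mir181b-1, the 5 members called kept direction and call where tested; Mir181c, at -0.0048 to 0.0012, was not called under any of these. Where a locus was counted as shared by a 20-nt stretch of its hairpin, 3 of 4 families with both kinds had all shared loci below the others.

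Taken singly, replicates 1 and 2 gave the values printed for each in the report, with the ratio of Mir181a-1 to Mir181b-1 between 184 and 452. Windows of 18 nt gave 11 shared ones at each Mir181a locus and 9 at each Mir181b locus, windows of 22 nt gave 7 and 5, and Mir181c and Mir181d had 0 in both. Searching all annotated transcripts in place of miRNA hairpins, an alternative added after seeing the data, gave the same numbers of shared windows.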
